A study of Mus musculus with 10 samples.

Results

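Cytosolic ribosomal protein genes, which encode the protein subunits of the ribosomes that translate nuclear-encoded mRNA, were followed in regenerating mouse muscle. Members were protein-coding genes with a symbol of Rpl or Rps and a number. The number could be followed by at most a letter (a, x, l, y or p) and a digit. Symbols with other endings were not taken, such as Rpl10-ps3 and Rpl9-ps6, which are annotated as protein-coding. Rpsa, Rplp0, Rplp1, Rplp2 and Fau were added, and the Rps6k kinases were left out. Each member had at least 10 counts in at least 5 of the 10 mice. Of 25700 genes counted, 84 met this symbol rule and 83 also met the count minimum, 33 of the small and 50 of the large subunit. The one left out was Rpl10l, the retrogene copy of Rpl10 known from testis, which had 0 reads in every mouse. All 83 members also passed the filter on low counts of the test across genes.

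Tibialis anterior (TA) muscle came from 12-week-old male C57BL/6 mice at day 6 after injection of cardiotoxin (CTX), a snake venom peptide that kills muscle fibers and starts their regeneration. The 5 control mice carried Pax7Cre, in which Cre recombinase is made in muscle stem cells and their descendants, and are labelled wild type at the miR-501 locus. The 5 knockout mice (miR-501KO) carried the same Pax7Cre with a floxed miR-501 allele on the single X chromosome (Pax7Cre miR-501fl/Y), so that miR-501 is expected to be lost from the myogenic lineage and kept in the immune, vascular and connective tissue cells of the same muscle. All 10 muscles were injured, and Pax7Cre was shared by both genotypes. Mir501 itself was not analysed here, and its loss was therefore not checked. The comparison asked which mRNAs differ between regenerating muscle with and without miR-501 in its myogenic cells, and here the answer is given for the ribosome.

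Each ribosome holds 1 copy of nearly every ribosomal protein, so cells make these proteins in matched amounts, and their mRNAs are among the most abundant and most evenly expressed in any tissue. Most of these mRNAs begin with a stretch of pyrimidines at the cap, the terminal oligopyrimidine (TOP) motif, through which the growth kinase mTOR and the protein Larp1 set their translation. A few ribosomal proteins have a paralogue used in particular tissues, such as Rpl3l, which takes the place of Rpl3 in mature striated muscle.

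The deleted miRNA reads, 5′ to 3′, with its seed (bases 2 to 8) in capitals, as given by RefSeq at chrX:7241270-7241291 on the minus strand of GRCm38.p6.
mmu-miR-501-3p: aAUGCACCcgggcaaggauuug

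A match to this seed, GGTGCAT, was searched in all annotated 3′ UTRs of protein-coding transcripts (GENCODE M21, GRCm38). It was found for 4 of 83 members, or 4.82%, against 7.50% of the 14036 tested genes with an annotated 3′ UTR, with no allowance for UTR length. The 4 matches are shown because these are the members with letters that the deleted miRNA could pair with, and the match is in capitals. They lie at chr14:18268708-18268728 (minus strand) for Rpl15, chr5:146836506-146836526 (plus) for Rpl21, chr4:3833407-3833427 (minus) for Rps20 and chr9:44410192-44410212 (plus) for Rps25.
Rpl15: atgtgttGGTGCATgagatag
Rpl21: cttggtgGGTGCATttaacct
Rps20: gaatacaGGTGCATgtcagca
Rps25: atgaatgGGTGCATctgtttc

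The match was in 1 of 5 coding transcripts of Rpl15, 1 of 3 of Rpl21, 1 of 1 of Rps20 and 1 of 3 of Rps25. The longest annotated 3′ UTR is 1191 bases in Rpl15, 1082 in Rpl21, 3170 in Rps20 and 289 in Rps25. Whether this muscle makes the transcript forms that hold a match was not tested. None of these 4 genes passed the test between genotypes. Their log2 fold changes in miR-501KO, each ± SE over 5 against 5 mice, were -0.00092 ± 0.0934 for Rpl15, -0.04 ± 0.13 for Rpl21, -0.02 ± 0.10 for Rps20 and -0.08 ± 0.14 for Rps25.

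RefSeq promoter windows (GRCm38.p6, 250 bases before to 50 after a start) were at hand for 63 of 83 members, in 75 windows. A run of at least 8 C or T within 15 bases of the start was present in 29 of the 75 windows, or 38.7%, against 12.0% of all 32851 windows. The letters CCGGAA, the core bound by Ets-family factors such as Gabpa, lay on either strand in 48.0% of the member windows and in 14.9% of all windows. The letters AAGATGGC, a form of the Yy1 motif, lay on either strand in 12.0% and 2.75%. Both motifs were searched over the whole window of 300 bases, and a match is a description of the letters only.

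The 30 bases around the start, 15 before it and 15 from it, are shown for 2 classical TOP genes and some of the paralogues. These are the pairs Rps27l and Rps27, Rpl22l1 and Rpl22, and Rpl39l and Rpl39, and Rpl3l alone, since Rpl3 had no window. Rpl7l1 had a window, with a longest run of 2, but is not shown, and its partner Rpl7 had none. The longest run of pyrimidines is in capitals. Rps6 is at chr4:86857353-86857382 (minus), Fau at chr19:6057932-6057961 (plus), Rps27 at chr3:90213634-90213663 (minus) and Rps27l at chr9:66946071-66946100 (plus). Rpl22 is at chr4:152325711-152325740 (plus), Rpl22l1 at chr3:28805493-28805522 (plus), Rpl39 at chrX:37085208-37085237 (minus), Rpl39l at chr16:10170213-10170242 (plus) and Rpl3l at chr17:24727811-24727840 (plus).
Rps6: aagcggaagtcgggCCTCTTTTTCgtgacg
Fau: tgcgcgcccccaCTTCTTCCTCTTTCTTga
Rps27: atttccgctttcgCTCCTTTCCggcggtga
Rps27l: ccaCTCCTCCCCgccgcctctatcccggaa
Rpl22: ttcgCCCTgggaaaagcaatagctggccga
Rpl22l1: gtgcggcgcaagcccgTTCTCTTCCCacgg
Rpl39: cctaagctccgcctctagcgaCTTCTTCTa
Rpl39l: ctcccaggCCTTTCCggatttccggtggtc
Rpl3l: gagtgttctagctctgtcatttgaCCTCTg

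Rps6 and Fau held runs of 10 and 16 pyrimidines next to the start. The longest run of Rpl3l was 5 letters, as in Rplp0 and Rpsa, and Rpl11 and Rps3 held only 3. At the other end, Rpl27a held 19 and Rpl7a 21. Rps27l, Rpl22l1 and Rpl39l held 9, 10 and 7. Only the runs of Rps6, Fau and Rps27 span the start. Those of Rps27l, Rpl39l and Rpl22 lie wholly before it, and so outside the mRNA that begins there. Those of Rpl22l1, Rpl39 and Rpl3l lie wholly after it. The Rpl22 window, the first of 2 given for that gene, held only 4.

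The libraries held 18609222 to 24753258 counts each, of which 6.59% to 14.0% came from mitochondrially encoded genes. Ribosomal protein genes took 3.42% to 4.88% of all counts. Markers of the cell types that a regenerating muscle holds were present in every library. The summed level of 25 mature fiber genes was 19221 to 51521 CPM (counts scaled to a common library size) in Pax7Cre and 28371 to 38749 in miR-501KO, so the spread was wider in the controls. The corresponding ranges were 6598 to 9130 and 6678 to 9074 for 11 genes of regenerating fibers, 5800 to 8214 and 6108 to 7300 for 11 macrophage genes, and 437 to 760 and 601 to 723 for 14 cell cycle genes. Those for 7 fibroblast genes were 14043 to 18956 and 14942 to 18069, and those for 5 endothelial genes were 582 to 713 and 571 to 716. Lymphocyte genes were low, with sums of 8.70 to 17.9 and 7.20 to 13.3 CPM for 4 of 6 genes, and the B cell gene Ms4a1 was under the filter. In whole muscle, fewer cells of a type and less RNA per cell cannot be told apart.

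In the 5 Pax7Cre mice, ribosomal protein genes made up 4.88%, 3.42%, 4.42%, 3.95% and 3.65% of counts (mice 1 to 5). In the 5 miR-501KO mice the shares were 4.31%, 4.49%, 3.77%, 3.65% and 3.55%. On this scale the highest and the lowest share were both in control mice, and all 5 knockout mice lay between them. With counts of mitochondrially encoded genes left out of the total, Pax7Cre mouse 1 was still highest at 5.44%. The lowest was then miR-501KO mouse 5 at 3.95%, next to Pax7Cre mouse 2 at 3.97%. Counts of large subunit genes exceeded those of small subunit genes by a nearly constant factor, 1.26 to 1.31 over the 10 mice.

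**Figure D1:**
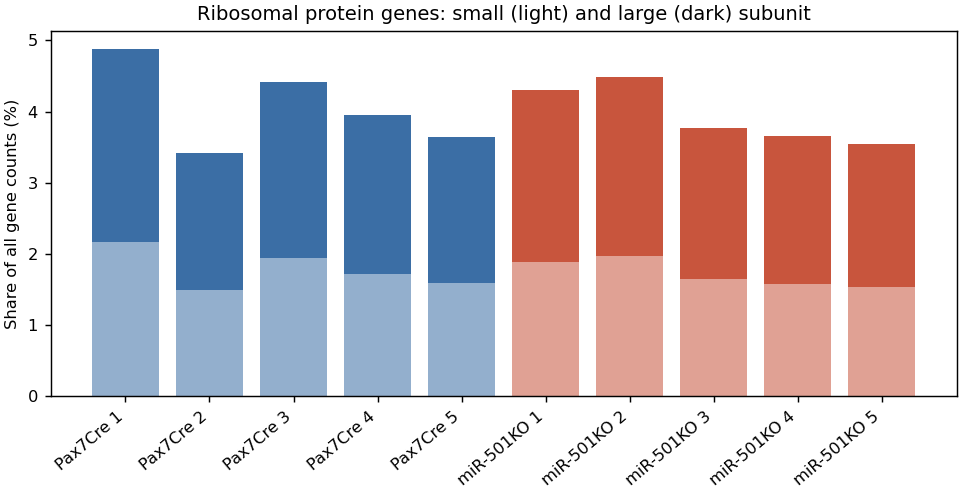
Share of all gene counts (percent, vertical axis) from ribosomal protein genes in each of the 10 mice, with small subunit genes as the light and large subunit genes as the dark part of each bar, Pax7Cre in blue and miR-501KO in red. The shares run from 3.42% in Pax7Cre mouse 2 to 4.88% in Pax7Cre mouse 1, and the miR-501KO mice lie between.

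Member levels spanned a wide range. CPM were scaled by the trimmed mean of M values (TMM), and the median member had a mean of 439 CPM, against 22.2 CPM for the median of all 14410 genes tested. Of the members, 78 lay above 100 CPM and 65 were among the 500 genes with the highest CPM. The 5 members with the highest mean CPM were Rpsa, the laminin receptor-related protein of the small subunit, at 1291, Rps24 at 1256, the stalk proteins Rplp0 at 1217 and Rplp1 at 1188, and Rpl4 at 1131. The 5 with the lowest were all members of paralogue pairs, Rps27l at 69.4, Rpl7l1 at 65.2, Rpl3l at 60.3, Rpl22l1 at 44.2 and Rpl39l at 1.47 CPM.

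Between genes, levels were compared per kilobase of coding sequence, since UTR lengths of several members differ widely between annotated transcripts. The coding lengths were 75 to 1257 bases, with a median of 453 against 1377 for all genes tested. On this scale the median member lay at 873 CPM per kilobase. Rpl41 was highest at 11319, and it has the shortest coding sequence, so that reads from its UTRs weigh most. It was followed by Rps29 at 3650, Rplp1 at 3473 and Rps24 at 3147 CPM per kilobase. Rpl41 and Rps29 are named for these values. The lowest were again the paralogues, with Rps27l at 275, Rpl22l1 at 121, Rpl7l1 at 88.4, Rpl3l at 49.4 and Rpl39l at 9.61 CPM per kilobase. Only Rpl27, at 249 and named for its value, lay among them.

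No ribosomal protein gene passed the test between genotypes. With edgeR's quasi-likelihood test and Benjamini-Hochberg adjustment over all 14410 genes, 0 of 83 members had an adjusted p under 0.05, against 0% of all genes. At an unadjusted p under 0.05, 0 members were higher in miR-501KO, against 0.382% of all genes (55 genes), and 0 were lower, against 0.666% (96 genes). DESeq2's Wald test and edgeR's likelihood ratio test also called 0 genes at an adjusted p under 0.05 and 0 members at an unadjusted one, with 52 and 64 genes higher and 98 and 95 lower at an unadjusted p under 0.05. For 0 of 83 members did the 5 mice of one genotype lie wholly above or below the 5 of the other, against 0.139% of all genes (20 genes). Leaving out Pax7Cre mouse 2 brought Rpl3l (log2 fold change 0.79) and Rpl39l (-0.66) under the unadjusted threshold, which is 1 of 83 members in each direction, where 1.84% of all genes were higher and 1.28% lower in that fit. Leaving out miR-501KO mouse 3 did so for Rpl39l (-0.63), with 0 members higher, where 0.463% of all genes were higher and 0.718% lower. Leaving out Pax7Cre mice 2 and 4 together, chosen after the data were seen, did so for Rpl39l (-0.66) and Rpl39 (-0.41), again with 0 members higher, where 1.91% of all genes were higher and 1.73% lower. The smallest adjusted p of a member in any of these fits was 0.983 by edgeR's quasi-likelihood test.

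The median log2 fold change of the members was -0.02 (miR-501KO over Pax7Cre), against -0.0042 for all genes tested. It was -0.02 for both the small and the large subunit. Of the members, 30 lay above and 53 below 0, and 77 lay within 0.1 of 0. The 95% intervals of the 81 members other than Rpl3l and Rpl39l reached no lower than -0.63 and no higher than 0.36 on the log2 scale, and the median half-width was 0.25. The sign of the median turned on single mice. It was 0.06, with 71 members above 0, without Pax7Cre mouse 1, and -0.07, with 5 members above 0, without miR-501KO mouse 2.

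**Figure D2:**
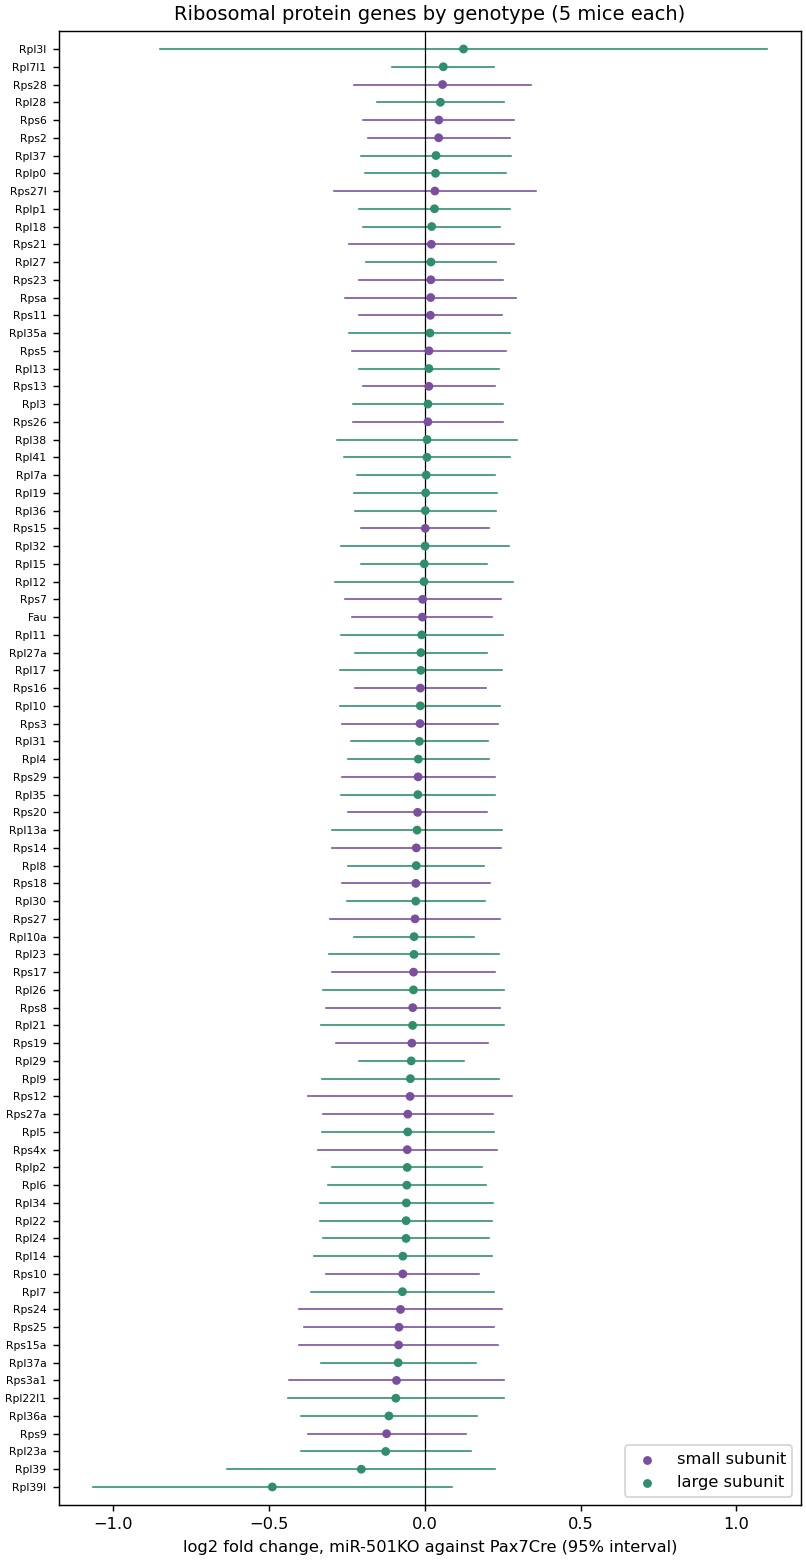
Log2 fold change of miR-501KO over Pax7Cre (horizontal axis) for 82 of the 83 ribosomal protein genes, with its 95% interval from edgeR, small subunit in purple and large subunit in green. All 82 intervals drawn include 0, and the points lie between -0.49 for Rpl39l and 0.12 for Rpl3l.

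Rps6, the small subunit protein phosphorylated by S6 kinase when mTOR is active, was at 551, 408, 461, 392 and 414 CPM in the Pax7Cre mice and at 490, 519, 428, 440 and 420 CPM in the miR-501KO mice. The genotypes overlapped, with the highest and the lowest value both in control mice. The log2 fold change was 0.05 ± 0.11 (SE, adjusted p = 1.00, edgeR's quasi-likelihood test with Benjamini-Hochberg adjustment). Rpsa was at 1523, 1156, 1453, 1110 and 1169 CPM in Pax7Cre and at 1378, 1496, 1230, 1241 and 1153 CPM in miR-501KO, again with both extremes among the controls.

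Rplp0, Rplp1 and Rplp2 form the stalk that recruits elongation factors to the ribosome. Rplp0 was at 1391, 1121, 1179, 1166 and 1154 CPM in Pax7Cre and at 1274, 1381, 1203, 1149 and 1152 CPM in miR-501KO. Pax7Cre mouse 1 and miR-501KO mouse 2 were highest, and the genotypes overlapped. The log2 fold changes of the 3 genes were 0.03 ± 0.10, 0.03 ± 0.11 and -0.06 ± 0.11 (SE).

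Rpl5 and Rpl11, which with 5S rRNA bind the p53 regulator Mdm2 when ribosome assembly fails, had log2 fold changes of -0.05 ± 0.13 and -0.0092 ± 0.12. Rps19, the gene most often mutated in Diamond-Blackfan anaemia, had -0.04 ± 0.11. The values for Fau and Rps27a, which are made as fusions to a ubiquitin-like protein and to ubiquitin, were -0.0073 ± 0.10 and -0.05 ± 0.13. Those for Rpl13a and Rps18, common reference genes in qPCR, were -0.02 ± 0.13 and -0.03 ± 0.11. None of these 7 genes passed the test.

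The members with the smallest unadjusted p among those below 0 were Rpl39l (log2 fold change -0.49 ± 0.27, SE), Rps9 (-0.12 ± 0.12), Rpl39 (-0.20 ± 0.20), Rpl23a (-0.12 ± 0.13) and Rpl36a (-0.11 ± 0.13), each with an adjusted p of 1.00 by edgeR's quasi-likelihood test. Rps9, which lies at the mRNA entry of the small subunit, was at 726, 594, 749, 533 and 551 CPM in Pax7Cre and at 624, 614, 569, 575 and 517 CPM in miR-501KO, so that Pax7Cre mice 1 and 3 lay above all knockout mice and the other 3 among them. Among those above 0 they included Rpl7l1 (0.06 ± 0.08), Rpl28 (0.05 ± 0.09), Rps28 (0.06 ± 0.13) and Rps2 (0.05 ± 0.10). Rpl7l1, a relative of Rpl7, was at 75.1, 61.7, 63.4, 60.3 and 58.9 CPM in Pax7Cre and at 66.2, 68.1, 69.4, 64.2 and 65.1 CPM in miR-501KO. Pax7Cre mouse 1 lay above all 5 knockout mice, and the other 4 control mice lay below all of them.

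The levels of ribosomal protein genes varied together from mouse to mouse. In log2 CPM around each gene's genotype mean, the mean correlation between 2 members was 0.77 over the 10 mice, against 0.00010 between any 2 genes tested, 0.66 among 78 mitochondrial ribosomal protein genes, 0.16 among 73 ribosome biogenesis genes and 0.12 among 44 translation factor genes. Among 25 mature fiber genes it was 0.83 and among 14 cell cycle genes 0.86, both above the ribosomal protein genes. These are descriptions across genes that share 10 libraries. It was 0.82 within the small and 0.73 within the large subunit. Against the mean of the other members, 71 of 83 had a correlation above 0.8 and 56 above 0.9, led by Rpl19 at 0.99. The lowest were Rpl3l at -0.0041, Rpl39l at 0.04, Rpl28 at 0.37 and Rps28 at 0.50. Rpl19 is named for its value.

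Pax7Cre mouse 1 was the highest mouse for 64 members, and Pax7Cre mouse 4 was the lowest for 47. The median member lay 0.28, -0.04, 0.09, -0.18 and -0.14 from its own mean over the 10 mice on the log2 scale in Pax7Cre mice 1 to 5, and 0.10, 0.15, -0.07, -0.04 and -0.18 in miR-501KO mice 1 to 5. The SD of this median was 0.19 in Pax7Cre and 0.13 in miR-501KO, and the difference of the means was within either. For 92.8% of members the SD of log2 CPM was larger among the controls, against 79.2% of all genes tested.

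Among other genes with a coding sequence under 600 bases (1775 genes), the median deviation was 0.12, 0.11, 0.01, -0.13 and -0.09 in Pax7Cre and 0.03, 0.07, -0.03, 0.03 and -0.07 in miR-501KO. Mice 1 and 4 of the controls were thus high and low for other genes of short coding sequence too. Pax7Cre mouse 2 was high for those genes and not for ribosomal protein genes. The part of mRNA length in the members' shared spread was not tested.

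**Figure D3:**
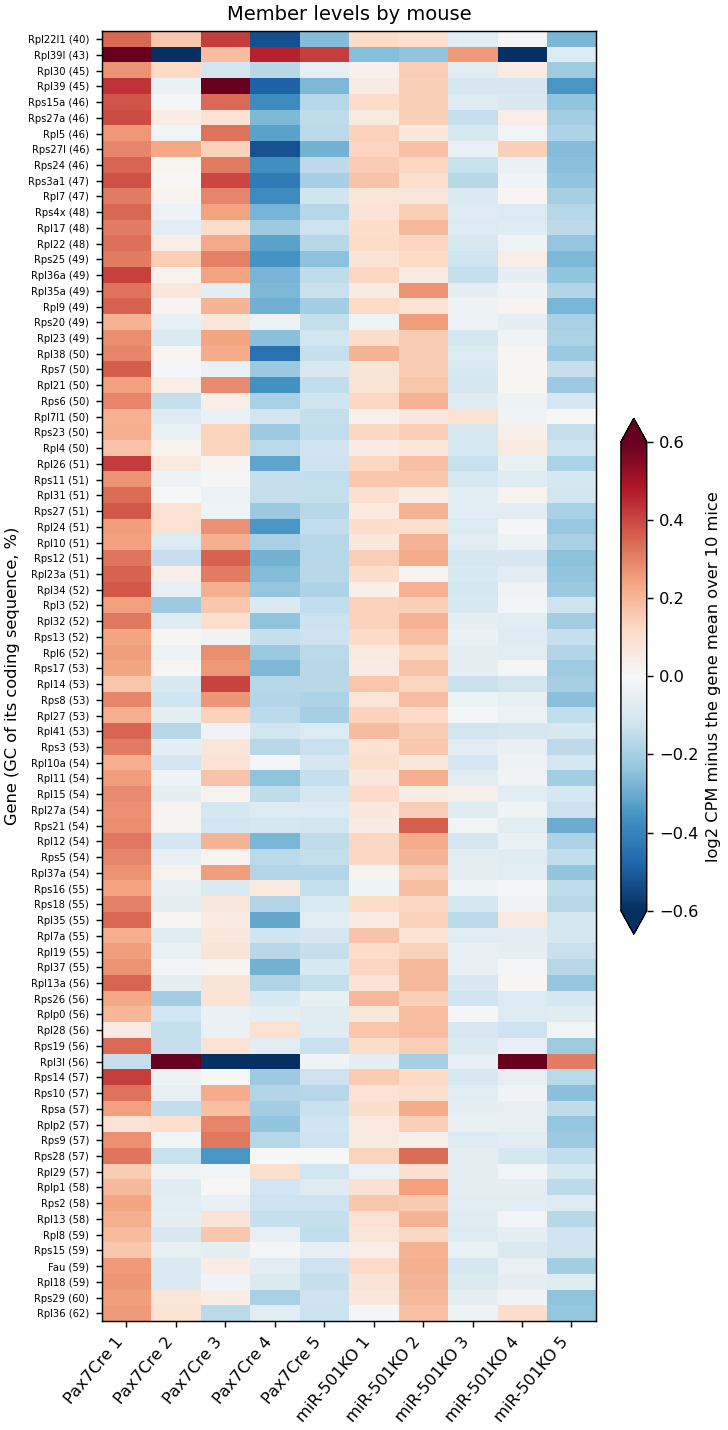
Log2 CPM of 82 of the 83 members minus its mean over the 10 mice (color, red above and blue below, scale ending at 0.6), with 1 column per mouse and members ordered from the lowest GC content of the coding sequence at the top to the highest at the bottom. Pax7Cre mouse 1 is red for 81 members, Pax7Cre mice 3 and 4 are most extreme for the members of low GC, and the rows of Rpl3l and Rpl39l differ from the rest.

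Members also separated by base composition, and most clearly in control mice. Across the 81 members other than Rpl3l and Rpl39l, the correlation of the GC content of the coding sequence with the deviation of a mouse was -0.49 in Pax7Cre mouse 3 and 0.69 in Pax7Cre mouse 4, and it was -0.45, -0.42 and 0.51 in Pax7Cre mice 1, 2 and 5. In the miR-501KO mice it ran from -0.20 to 0.38. Over 14070 genes tested with a coding sequence it was -0.28 and 0.28 in Pax7Cre mice 3 and 4. There it was -0.19, -0.02 and 0.16 in Pax7Cre mice 1, 2 and 5. In miR-501KO mice 1 to 5 it was -0.19, 0.13, 0.05, 0.0042 and 0.16. Over all genes, only Pax7Cre mice 3 and 4 thus lay outside the range of the knockout mice. These are descriptions across genes of single libraries. Rpl39, whose small protein lines the exit tunnel and whose coding sequence has 45.1% GC, was at 209, 151, 255, 111 and 128 CPM in Pax7Cre and at 160, 171, 144, 145 and 122 CPM in miR-501KO. Pax7Cre mouse 3 was highest and mouse 4 lowest, and the log2 fold change was -0.20 ± 0.20 (SE). Rps28, with 57.0% GC, was at 354, 258, 222, 283 and 284 CPM in Pax7Cre and at 310, 357, 272, 263 and 256 CPM in miR-501KO, with Pax7Cre mouse 3 lowest. The part of base composition in these differences was not tested.

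Rpl3l was the member that varied most and that moved apart from the others. It encodes the form of the large subunit protein Rpl3 that is restricted to heart and skeletal muscle, and lies at chr17:24727820-24736143 on the plus strand. It was at 47.0, 144, 29.4, 17.8 and 50.9 CPM in Pax7Cre mice 1 to 5, and at 49.9, 45.1, 50.2, 105 and 64.0 CPM in miR-501KO mice 1 to 5. Pax7Cre mouse 2 and miR-501KO mouse 4 were high, Pax7Cre mouse 4 was low, and the genotypes overlapped. The means were 57.8 ± 49.8 and 62.9 ± 24.8 CPM (SD, n = 5 each), and an exact two-sided permutation test of the difference gave p = 0.857. The log2 fold change of 0.12 ± 0.45 (SE) had a 95% interval from -0.85 to 1.10, so these mice are compatible with sizeable differences in either direction. It reached 0.79 without Pax7Cre mouse 2 and turned to -0.14 without miR-501KO mouse 4, to -0.11 without Pax7Cre mouse 4 and to -0.04 without Pax7Cre mouse 3.

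Rpl3, its partner at chr15:80077791-80091868 on the minus strand, stayed within a narrower range. It was at 531, 385, 501, 421 and 403 CPM in Pax7Cre and at 493, 494, 419, 442 and 411 CPM in miR-501KO. Pax7Cre mouse 2, which was the highest for Rpl3l, was the lowest for Rpl3. Counts of Rpl3l were 8.86%, 37.3%, 5.88%, 4.23% and 12.6% of those of Rpl3 in the controls and 10.1%, 9.12%, 12.0%, 23.9% and 15.6% in the knockouts. These shares compare counts, not levels per length. The coding sequences are 1221 bases in Rpl3l and 1209 in Rpl3, but the annotated exons, UTRs included, cover 1643 and 3175 bases.

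The level of Rpl3l followed the amount of mature fiber mRNA in the muscle. The mature fiber score, the mean log2 deviation of 25 genes such as Ckm, Pvalb and Atp2a1 that does not include Rpl3l, was -0.08, 0.80, -0.25, -0.69 and -0.02 in Pax7Cre mice 1 to 5 and -0.14, -0.14, 0.01, 0.43 and 0.06 in miR-501KO mice 1 to 5. The mice with the highest and the lowest score were those with the most and the least Rpl3l. Over the 10 mice, log2 CPM of Rpl3l and the score had Pearson's r = 0.98 (permutation p = 1e-05, the smallest that 100000 permutations give, adjusted p = 3e-05 over 3 relations) and Spearman's rho = 0.95 (permutation p = 0.00019, adjusted p = 0.000285). Without Pax7Cre mice 2 and 4, the mice farthest from the median score, r was 0.96 (permutation p = 0.00037). The relation was computed over both genotypes, since 5 mice are too few for a correlation within each. Within each genotype, the mouse with the highest score also had the most Rpl3l.

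Eef1a2, the elongation factor form that takes the place of Eef1a1 in mature muscle, was at 211, 480, 156, 170 and 302 CPM in Pax7Cre and at 218, 213, 273, 387 and 332 CPM in miR-501KO. Its log2 CPM and that of Rpl3l had r = 0.92 (permutation p = 9e-05, adjusted p = 0.000135) and rho = 0.98 (permutation p = 5e-05, adjusted p = 0.00015), and r was 0.81 without Pax7Cre mouse 2 and miR-501KO mouse 4 (permutation p = 0.00744). Rpl3l and Rpl3 had r = -0.36 (permutation p = 0.314, adjusted p = 0.314) and rho = -0.66 (permutation p = 0.0441, adjusted p = 0.0441), and r was -0.26 without Pax7Cre mice 1 and 3 (permutation p = 0.522). The sign was the same in both, and only the rank correlation passed the threshold.

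The 4 genes tested whose log2 CPM had the highest Pearson's r with Rpl3l over the 10 mice were Ndrg2, Smco1, Cpe and Stradb, each at 0.99. Ndrg2, a differentiation-associated gene, was at 389, 876, 322, 248 and 431 CPM in Pax7Cre and at 440, 432, 406, 712 and 494 CPM in miR-501KO, in which Pax7Cre mouse 2 was again highest and Pax7Cre mouse 4 lowest. They were picked as the most alike of all genes tested, and the r values are a description.

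**Figure D4:**
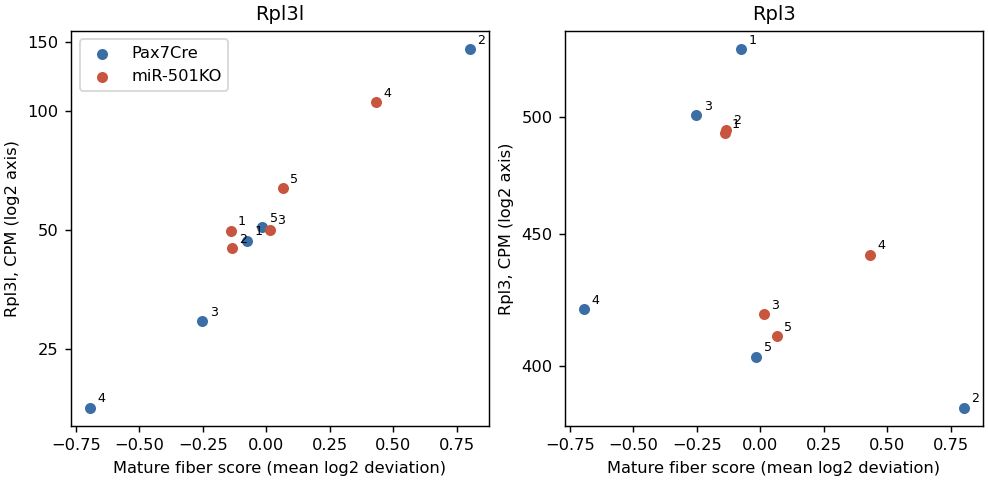
CPM of Rpl3l (left) and Rpl3 (right), each on a log2 axis, against the mature fiber score of the same muscle, with 1 point per mouse labelled by its number, Pax7Cre in blue and miR-501KO in red. Rpl3l rises with the score (r = 0.98), from 17.8 CPM in Pax7Cre mouse 4 to 144 CPM in Pax7Cre mouse 2, while Rpl3 does not.

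Rpl39l, the paralogue of Rpl39 best known from testis and at chr16:10170226-10174911 on the plus strand, was the member with the least RNA and the largest log2 fold change. It was at 2.37, 0.844, 1.58, 1.93 and 1.86 CPM in Pax7Cre and at 1.16, 1.18, 1.67, 0.795 and 1.31 CPM in miR-501KO. The genotypes overlapped, since Pax7Cre mouse 2 was below 4 of the 5 knockout mice. The lowest library held 15 counts of the gene, so each value carries a wide counting error. The log2 fold change was -0.49 ± 0.27 (SE, 95% interval -1.06 to 0.09), and the exact two-sided permutation test of CPM gave p = 0.143.

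No difference in paralogue use between genotypes passed the test. Both genes were counted for 5 of the ribosomal pairs and for Eef1a2/Eef1a1, whereas Rpl10l and Rps4l were not tested. Rps27l, which p53 can induce, had 10.1% to 13.9% of the counts of Rps27 in Pax7Cre and 11.8% to 14.3% in miR-501KO. Rpl22l1 had 14.9% to 19.5% and 16.6% to 17.4% of the counts of Rpl22. Rpl7l1 had 6.68% to 10.1% and 8.12% to 9.66% of those of Rpl7, and Rpl39l had 0.577% to 1.76% and 0.568% to 1.17% of those of Rpl39.

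On the log2 scale, the ratio of Rpl3l to Rpl3 was 0.40 higher in miR-501KO, from -3.31 ± 1.21 to -2.91 ± 0.56 (SD, n = 5 each, exact two-sided permutation p = 0.532, adjusted p = 0.752 over 6 ratios). The differences were 0.21 for Eef1a2/Eef1a1, 0.12 for Rpl7l1/Rpl7, 0.08 for Rps27l/Rps27, -0.01 for Rpl22l1/Rpl22 and -0.30 for Rpl39l/Rpl39. The exact p was 0.341 or more for each of the 6, where 5 against 5 mice allow 0.00794 at the lowest. The control mice spread more widely than the knockout mice in each ratio.

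**Figure D5:**
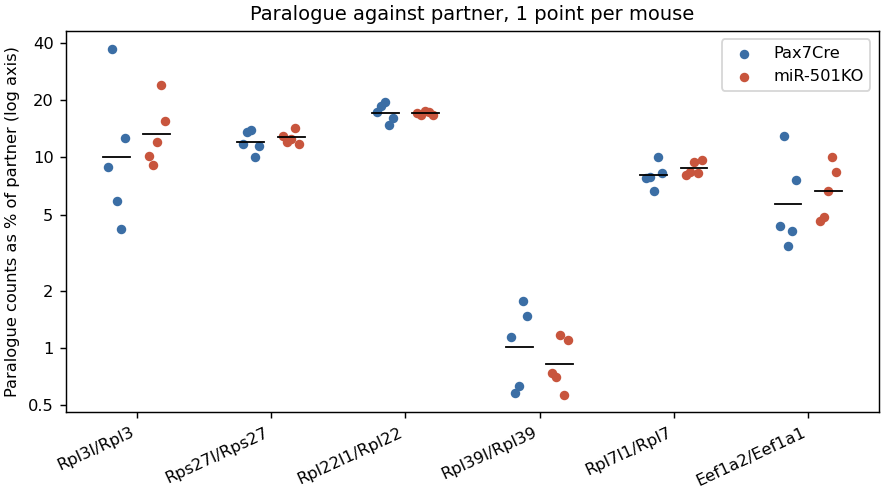
Counts of each paralogue as a percentage of those of its partner (log axis), with 1 point per mouse, Pax7Cre in blue and miR-501KO in red, and a bar at the geometric mean of each genotype. The genotypes overlap in all 6 pairs, and Rpl3l/Rpl3 has the widest range, from 4.23% to 37.3% of the partner.

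No gene of the pathways around the ribosome passed the test either. None of the 5 lists held a gene with an adjusted p under 0.05 by edgeR's quasi-likelihood test with Benjamini-Hochberg adjustment, and 1 gene in all had an unadjusted p under 0.05, against the 0.382% of all genes that were higher at that threshold. Of 74 ribosome biogenesis genes 73 were tested, with 32 above 0 and a median log2 fold change of -0.0043. Imp3, a part of the machine that processes the precursor of 18S rRNA, had the smallest p (log2 fold change -0.16 ± 0.09, SE), followed by Utp15 (0.14 ± 0.09). Fbl, the methyltransferase of box C/D particles, and Npm1, the nucleolar chaperone of assembly, had -0.01 ± 0.12 and -0.05 ± 0.13.

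Of 44 translation factor genes 16 lay above 0, with a median of -0.02. Eif5a, which helps ribosomes through proline-rich stretches, had the smallest p (0.10 ± 0.09). Eef1a1 was at 4239 ± 462 CPM in Pax7Cre and 4192 ± 345 in miR-501KO (SD over 5 mice), and its log2 fold change was -0.02 ± 0.13 (SE). Of 18 other genes with TOP mRNAs 3 lay above 0 and the median was -0.05. Eif4b, at 315 ± 7.24 and 299 ± 8.15 CPM (SD), had the smallest p of this list (-0.08 ± 0.07), and Naca, a chaperone of nascent chains, had -0.08 ± 0.10. Rack1, the scaffold on the small subunit, had -0.02 ± 0.11.

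Of 19 growth control genes 9 lay above 0, with a median of -0.00036. Eif4ebp1, the translation repressor that mTOR switches off, had 0.13 ± 0.08, and Pdcd4, an inhibitor of the helicase Eif4a, had -0.14 ± 0.11. Mtor had -0.02 ± 0.10, Rps6kb1, which encodes S6 kinase, had 0.06 ± 0.07, and Myc, the activator of ribosome production, had 0.03 ± 0.14. Of 78 mitochondrial ribosomal protein genes 34 lay above 0, with a median of -0.01. Mrps18b was the gene with an unadjusted p under 0.05 (0.21 ± 0.10, adjusted p = 1.00 by edgeR), at 17.0 ± 2.27 CPM in Pax7Cre and 19.7 ± 1.18 in miR-501KO (SD), and Mrpl58 followed (0.13 ± 0.08).

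The same lists were also followed over the mice. The mitochondrial ribosomal protein genes had a median deviation of 0.29 in Pax7Cre mouse 2 and -0.30 in Pax7Cre mouse 4, next to mature fiber genes at 0.76 and -0.71. In the same mice the cytosolic ribosomal protein genes lay at -0.04 and -0.18, so both kinds were low in mouse 4 and only the mitochondrial kind was high in mouse 2. Ribosome biogenesis genes stayed within -0.08 and 0.10 in every mouse, and translation factors within -0.09 and 0.08. Other TOP mRNAs were highest in Pax7Cre mice 1 and 3, at 0.13 and 0.12, and lowest in Pax7Cre mouse 5 at -0.12. The ribosomal protein genes lay at 0.28, 0.09 and -0.14 in these mice.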

How the data were processed

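RNA was extracted with TRIzol from TA muscle of 5 Pax7Cre and 5 miR-501KO mice. Libraries were made with the TruSeq Stranded mRNA kit and read single-end on a NovaSeq. The authors aligned reads with STAR to an annotation their methods call ENCODE, and deposited raw counts per gene and mouse, with no normalization. The submitters' processing notes also name featureCounts, R 3.5.1 and GRCm38.p5. The strand setting and the rule for reads matching more than 1 gene are not given in the sources used here. Of 302 genes in GENCODE M21 with a ribosomal protein symbol and a -ps suffix, 9 were among the genes analysed here. Some of the 9, such as Rpl10-ps3, are annotated as protein-coding and others, such as Rpl7a-ps5, as processed pseudogenes. Reads shared with pseudogenes are thus uncertain for the members.

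Gene names and coordinates came from GENCODE M21 (GRCm38), which held 25664 of 25700 identifiers. Genes passing filterByExpr (minimum count 10) were tested in edgeR 4.0.16 (R 4.3.3) with TMM scaling, the quasi-likelihood test on genotype alone and Benjamini-Hochberg adjustment, after a test on simulated counts. DESeq2 1.42.0 was an alternative. CPM in log2 form carried a prior of 0.5 counts. Single values and paralogue ratios (prior 0.5 counts) were tested by exact permutation over mice. Named members were both genes of each paralogue pair, 12 members of known roles, the 5 highest and 5 lowest in CPM, and the 5 smallest p in each direction, and a few genes named by these rules are not reported here. The members and lists were chosen with earlier results of these data known. Each mouse is a separate animal. Members held 15 to 35335 counts per library. Alternatives changed the scaling, the filter, the test, the block and the mice included.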

Additional observations from a re-analysis of the deposited data

Results flagged for a closer look

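Among 74 groups of 5 mice searched (37 quantities in each genotype), 4 held a mouse whose gap to the nearest other exceeded 0.71 of the group's range, where chance alone flags about 1 in 20 groups, or 3.7 of 74. All 4 were in Pax7Cre. Pax7Cre mouse 1 stood above the other 4 controls for Rpl7l1 (75.1 CPM against 58.9 to 63.4), Rplp0 (1391 against 1121 to 1179) and Rps2 (867 against 675 to 714). These 3 genes share the library that was highest for 64 of 83 members, so they are not 3 separate observations. Pax7Cre mouse 2 stood above the others for Rpl3l (144 CPM against 17.8 to 50.9), in the muscle with the highest mature fiber score.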

How the results depend on the processing

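The count of 0 genes and 0 members at an adjusted p under 0.05 held under each alternative run. These were size factors from DESeq2, TMM factors computed without ribosomal protein or without mitochondrially encoded genes, testing every gene with a count, a minimum of 10 counts in all 10 mice, the DESeq2 Wald and edgeR likelihood ratio tests, the quasi-likelihood test in its newer form (chosen after the data were seen), a threshold of 0.1 and each mouse left out. Members at an unadjusted p under 0.05 numbered 0 to 1 higher and 0 to 1 lower with 1 mouse left out, and 2 lower without Pax7Cre mice 2 and 4. Among all genes these counts were 55 higher and 96 lower with every mouse, 267 and 186 without Pax7Cre mouse 2, 228 and 242 without Pax7Cre mouse 4, 279 and 252 without both, and 39 and 59 without miR-501KO mouse 1. The median log2 fold change of members ran from -0.07 to 0.06 with 1 mouse left out. It was -0.09, with 5 members above 0, without Pax7Cre mice 2 and 4 together. The correlations of same-numbered mice of the 2 genotypes were 0.32, -0.15, 0.15, -0.28 and 0.19. Mice 1 and 3 of the controls correlated best with their own number, and mice 2, 4 and 5 did not. Whether equal numbers mark pairs cannot be settled this way, since a low correlation does not exclude a pairing. With the number as a replicate block the member median was -0.01, and 0 members passed at either threshold, with 87 genes higher and 102 lower at an unadjusted p under 0.05. Without a filter those counts were 153 and 159, and with at least 10 counts in every mouse 36 and 100.

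With all 10 mice kept, no named member turned sign under the alternatives run, while the number of all 83 members above 0 was 27 to 32 against 30, and the median of all genes went from -0.0042 to 0.0042 with the replicate block. With each mouse left out, the log2 fold change of Rpl3l ran from -0.14 to 0.79. The values ran from -0.066 to 0.061 for Fau, -0.070 to 0.051 for Rpl10, -0.068 to 0.057 for Rpl11, -0.078 to 0.071 for Rpl13a, -0.14 to 0.023 for Rpl22, -0.21 to 0.0084 for Rpl22l1, -0.042 to 0.079 for Rpl3, -0.061 to 0.022 for Rpl4, -0.13 to 0.028 for Rpl5, -0.16 to 0.0033 for Rpl7 and -0.0098 to 0.093 for Rplp0. They ran from -0.031 to 0.088 for Rplp1, -0.12 to 0.017 for Rplp2, -0.073 to 0.051 for Rps18, -0.085 to 0.049 for Rps19, -0.17 to 0.0073 for Rps24, -0.089 to 0.071 for Rps27, -0.12 to 0.050 for Rps27a, -0.074 to 0.12 for Rps27l, -0.026 to 0.16 for Rps28, -0.13 to 0.032 for Rps4x, -0.0030 to 0.13 for Rps6 and -0.037 to 0.089 for Rpsa. The difference of the Rpl22l1/Rpl22 ratio ran from -0.063 to 0.034. The log2 fold change of Rpl23a stayed below 0 with each mouse left out, from -0.20 to -0.046. Without Pax7Cre mice 2 and 4 together, the values were -0.083 for Rpl3, -0.011 for Rplp0, -0.022 for Rplp1, -0.0046 for Rps2, -0.032 for Rps27l, -0.048 for Rps6 and -0.088 for Rpsa. No member passed an adjusted p under 0.05 in any of these fits. The relations of Rpl3l with the mature fiber score (r = 0.96 to 0.99) and with Eef1a2 (0.81 to 0.94) kept their side of the threshold without any 1 mouse and without the 2 mice farthest out. The prior of 2 counts changed no ratio's sign or call. With 5 mice in each genotype, the 95% intervals had a half-width of about 0.25 on the log2 scale for a typical member, and Rpl39l, at 15 counts in its lowest library, is limited by depth.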
